A study of Mus musculus with 2 samples.

Results

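This account follows 10 genes of bone morphogenetic protein (BMP) signalling through the cells of the mouse mitral valve. They are the ligand genes Bmp2, Bmp4 and Bmp6, the secreted antagonist gene Chrdl1, the receptor genes Bmpr1a and Bmpr2, and the target genes Id1, Id2, Id3 and Id4. The 10 were chosen by name, and all 10 are among the 32285 genes counted. Single cells were captured from dissected anterior and posterior mitral leaflets, taken apart with a mix of matrix-digesting enzymes, and their transcripts were counted at the 3′ end with the Chromium Single Cell 3′ kit, version 3.1. Of the 2 libraries, 1 came from 3 pooled Fbn1 C1039G/+ mice and 1 from 5 pooled WT (Fbn1 +/+) mice, all C57BL/6J and 1 month old. The fibrillin-1 protein made from Fbn1 builds the microfibrils of the matrix, and the C1039G allele, carried here beside a wild type allele, replaces a cysteine of that protein and is used as a mouse model of Marfan syndrome. No other allele or treatment is named for either pool, and the comparison asks how the valve cells of the 2 genotypes differ in these transcripts.

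BMP ligands are secreted dimers that bring a type II receptor together with a type I receptor, which then phosphorylates SMAD proteins that enter the nucleus. Chordin-like proteins bind the ligands outside the cell and keep them from the receptors. The Id genes are among the best known direct targets, and their proteins hold basic helix-loop-helix E proteins away from DNA. In the embryonic heart, BMP signals from the myocardium help to start the endocardial cushions from which the mitral leaflets grow. Fibrillin microfibrils are known to bind several BMP propeptides.

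The start regions of 7 of the 10 genes could be read from RefSeq promoters on GRCm38.p6, the patch release of the same assembly as mm10. Those of Bmp4 and Bmp6, whose levels differed together between the libraries in endothelial barcodes, and of Id3 and Id4, which stood lowest and highest in the same set of interstitial barcodes, are shown as the 250 bases before the start that RefSeq gives, 5′ to 3′ on the strand of the gene. Gene positions given further on are those of GENCODE M21, whose Bmp6 and Id3 start upstream of the RefSeq start, so that the windows of these 2 genes lie inside the GENCODE interval. Capitals mark GGCGCC, a GC-rich sequence that SMAD proteins of the BMP branch can bind, and GTCTG or its complement CAGAC, the core of the general SMAD-binding element.
Bmp4 (chr14:46390670-46390919, minus strand): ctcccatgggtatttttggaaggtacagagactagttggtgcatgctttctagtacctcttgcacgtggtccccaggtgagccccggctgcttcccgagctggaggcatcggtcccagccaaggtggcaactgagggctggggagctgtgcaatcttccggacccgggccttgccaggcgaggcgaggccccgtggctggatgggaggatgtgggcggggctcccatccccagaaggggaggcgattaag
Bmp6 (chr13:38345466-38345715, plus strand): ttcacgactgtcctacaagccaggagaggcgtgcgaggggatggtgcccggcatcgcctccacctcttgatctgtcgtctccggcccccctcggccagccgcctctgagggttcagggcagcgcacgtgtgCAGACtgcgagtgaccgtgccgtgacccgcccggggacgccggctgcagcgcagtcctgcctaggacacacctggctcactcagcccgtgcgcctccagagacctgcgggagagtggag
Id3 (chr4:136143572-136143821, plus strand): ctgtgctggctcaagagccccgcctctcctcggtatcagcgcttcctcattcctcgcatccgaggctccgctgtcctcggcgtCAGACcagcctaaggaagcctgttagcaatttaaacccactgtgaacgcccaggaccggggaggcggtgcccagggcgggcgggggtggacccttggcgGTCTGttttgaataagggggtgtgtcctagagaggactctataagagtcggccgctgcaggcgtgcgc
Id4 (chr13:48260866-48261115, plus strand): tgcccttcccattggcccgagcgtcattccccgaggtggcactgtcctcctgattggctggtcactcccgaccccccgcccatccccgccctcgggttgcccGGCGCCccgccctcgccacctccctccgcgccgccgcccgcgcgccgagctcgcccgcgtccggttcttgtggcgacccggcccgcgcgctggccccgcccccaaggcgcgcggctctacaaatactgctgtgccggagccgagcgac
Both strands were searched, GGCGCC reads the same on either, and no window held both motifs, so none overlapped. GGCGCC occurred in 1 copy each in the windows of Id2, Id4, Bmpr1a and Bmpr2 and was not in those of Id3, Bmp4 and Bmp6. GTCTG or CAGAC occurred in 2 copies in the Id3 window and in 1 copy in the Bmp6 window. Among 32851 mouse promoter windows of the same 250 bases, 9.59% held GGCGCC and 42.2% held GTCTG on either strand, so a match is a description of the letters and not evidence of a site in use.

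The Fbn1 C1039G/+ library held 103663375 unique molecular identifiers (UMIs, each a counted transcript copy) in 9744 barcodes and the WT library held 100969482 in 9509, and 17 barcodes occurred in both. Barcodes of 1000 UMIs or more with no more than 20% of them mitochondrial were kept, 9540 and 9395 in number. A barcode was called interstitial when Dcn, Col1a1, Col1a2 and Col3a1, genes of the fibroblast matrix, made up at least 1% of its UMIs, which gave 7768 Fbn1 C1039G/+ and 7557 WT barcodes. Under 1%, at least 5 UMIs of Pecam1, Cdh5 and Emcn made it endothelial (318 and 250) and at least 10 UMIs of the complement genes C1qa, C1qb and C1qc made it a macrophage (880 and 800), while 10 and 13 barcodes that met both rules and 564 and 775 that met neither were set aside. Markers that the rules did not use followed the names: 6 further interstitial markers summed to 7063 and 6220 CPM in interstitial barcodes, 6 endothelial markers to 2569 and 2392 CPM in endothelial barcodes, and 6 macrophage markers to 11590 and 10625 CPM in macrophages. CPM is the count of a gene scaled to the UMI total of its class and library.

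With 1 library for each genotype there is no replicate, no p-value was computed, and a difference between genotypes cannot be told apart from one between pools, dissections or library preparations. Intervals are exact, at 95%, and cover counting error only. A gene counted as measured in a class when it reached 20 CPM in a library and 50 UMIs in the 2 together, and as called when Fbn1 C1039G/+ and WT differed at least 1.5-fold, on a scale of log2(CPM + 1), with a ratio interval that excluded 1. In interstitial barcodes 0 of the 9 measured genes of the 10 were called higher and 0 lower, where 0.869% of all 6563 measured genes were called higher and 1.37% lower. In endothelial barcodes 3 of 8 were called higher, all of them ligand genes, and 0 lower, against 3.07% of 7240 genes in either direction. In macrophages 0 of 4 were called higher and 1 of 4, Id3, lower, against 1.28% and 3.59% of 6080 genes. Barcodes of no class had 6 of the 10 genes measured, with 0 called higher, where 6.84% of 6421 genes were, and 0 called lower, where 3.66% were.

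**Figure D1:**
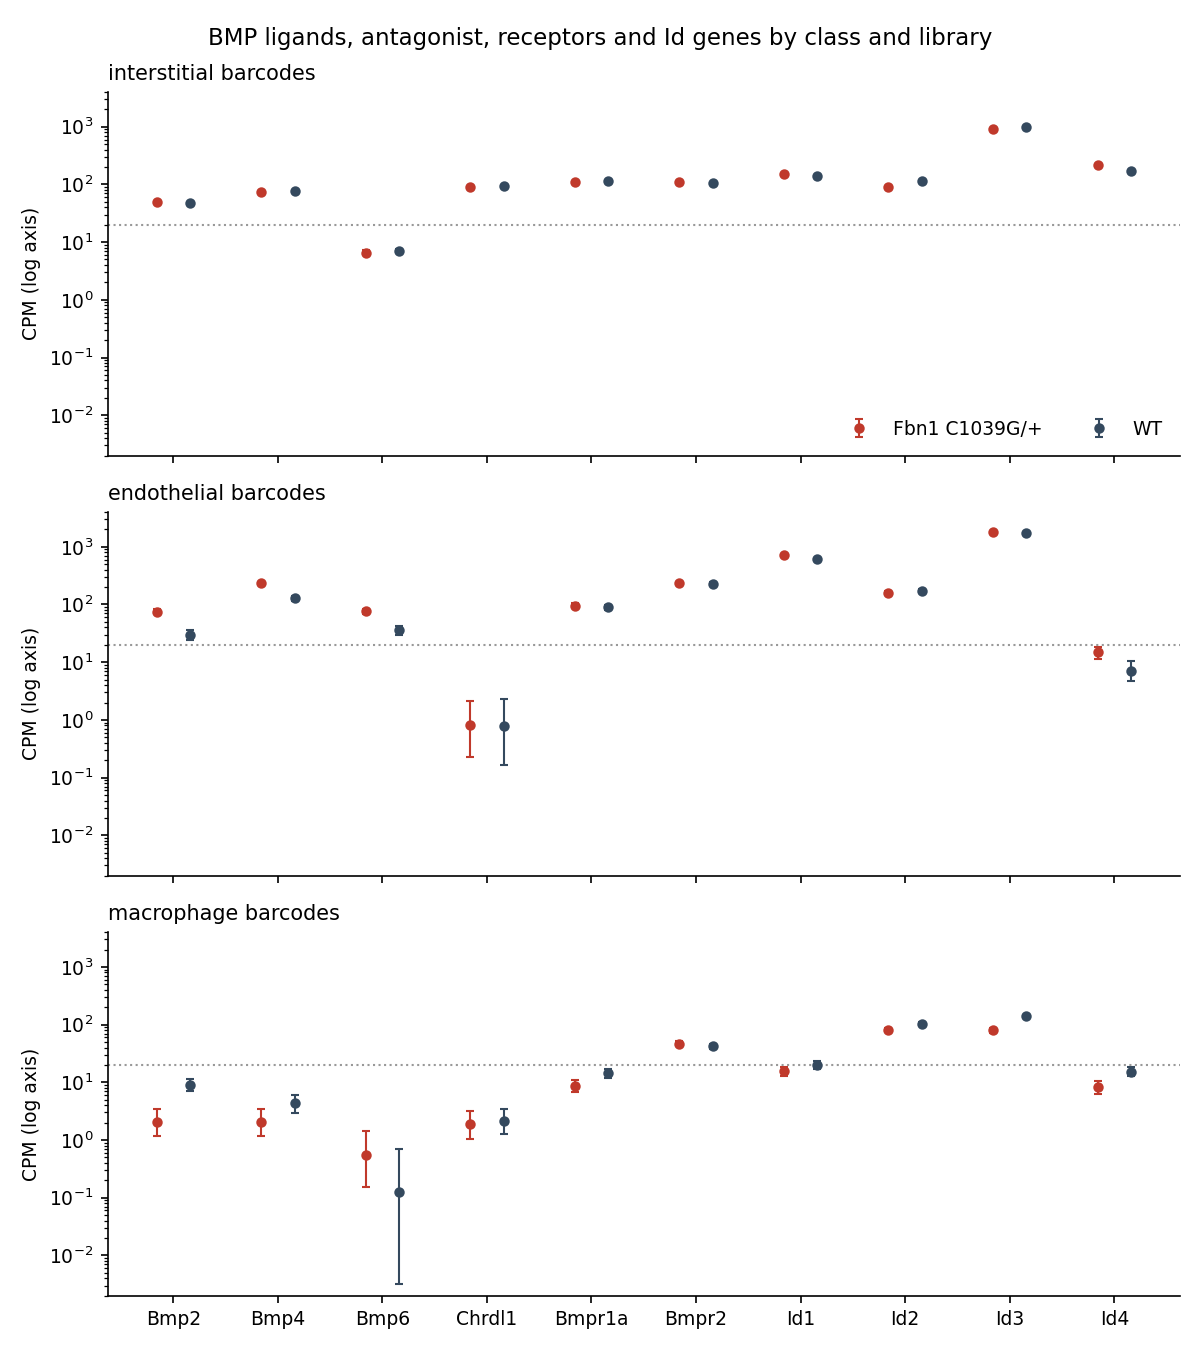
Level of each gene in CPM (log axis) in interstitial, endothelial and macrophage barcodes of the Fbn1 C1039G/+ library (red, left) and the WT library (blue, right); points are 1 library each, bars are 95% Poisson intervals, and the dotted line is the 20 CPM level for measured genes. Chrdl1 and Id4 pass the dotted line only in the interstitial panel, while Bmp2, Bmp4 and Bmp6 show separated red and blue points in the endothelial panel.

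**Figure D2:**
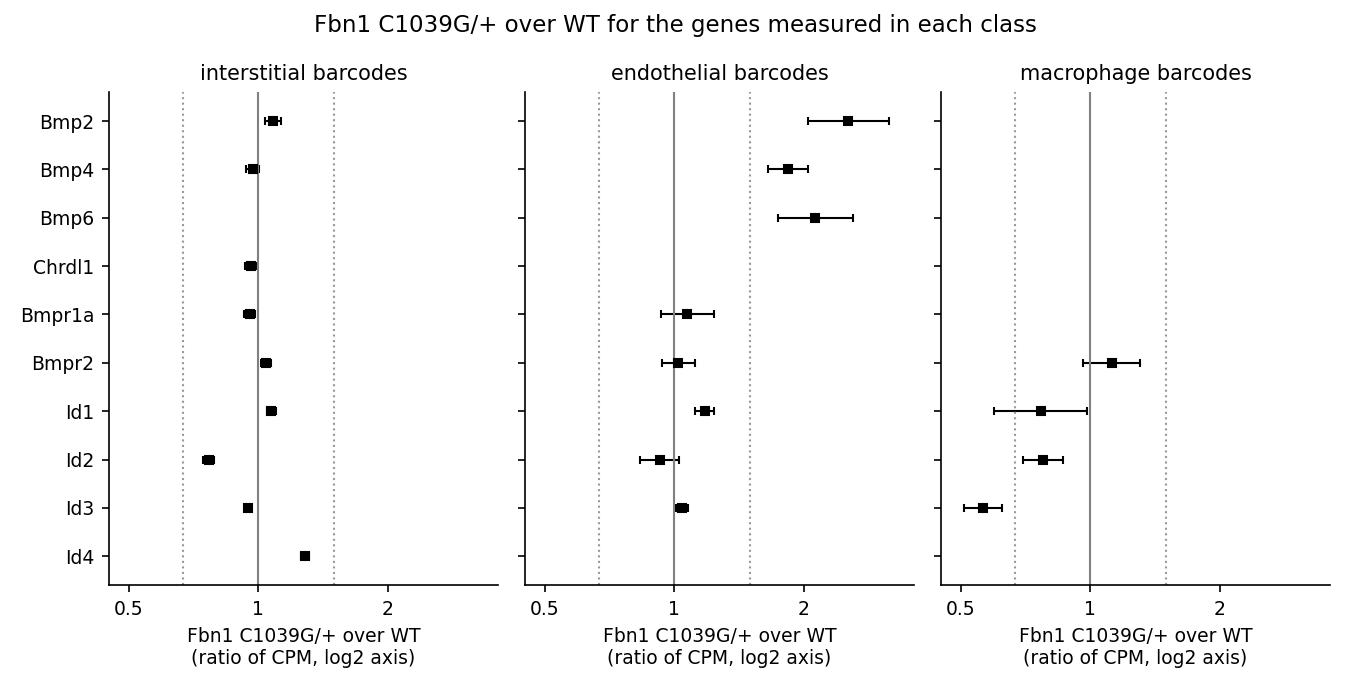
Ratio of CPM, Fbn1 C1039G/+ over WT (log2 axis), for the genes measured in each class, with 95% counting intervals; the solid line is a ratio of 1 and the dotted lines are 1.5-fold in either direction. The 3 ligand genes lie beyond 1.5-fold in endothelial barcodes and Id3 lies below it in macrophages, while the interstitial ratios lie between 0.767 for Id2 and 1.28 for Id4.

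Among the ligands, Bmp2 (ENSMUSG00000027358, mm10 chromosome 2, 133552159 to 133562885, plus strand) is the ligand best known for driving cushion formation in the mouse heart. In interstitial barcodes it stood at 50.6 CPM (49.1 to 52.1) in the Fbn1 C1039G/+ library and 46.8 CPM (45.3 to 48.3) in the WT library, a ratio of 1.08 (1.04 to 1.13). In endothelial barcodes it stood at 74.9 CPM (67.4 to 83.0) in the Fbn1 C1039G/+ library, from 365 UMIs, and at 29.6 CPM (24.4 to 35.6) in the WT library, from 112 UMIs, a ratio of 2.53 (2.04 to 3.16). Endothelial Bmp2 was concentrated in few barcodes, since 24.2% of Fbn1 C1039G/+ and 18.0% of WT barcodes held a UMI, and the 5 barcodes with the most held 43.3% and 50.9% of all its UMIs. Without the 5 barcodes of each library richest in ligand UMIs, a subset chosen after the data were seen, Bmp2 had 48.8 CPM in the Fbn1 C1039G/+ library and 19.1 CPM in the WT library, and the ratio of 2.56 (1.95 to 3.38) was called. These barcodes were ranked by the 3 ligand genes together and not by Bmp2 alone. Their removal left 229 and 71 Bmp2 UMIs, so not all of the barcodes richest in Bmp2 were left out. When each barcode was thinned to 3000 UMIs, which gives every barcode the same weight, the Bmp2 level was 45.2 CPM in the Fbn1 C1039G/+ library and 37.9 CPM in the WT library, from 42 and 28 UMIs. The thinned ratio of 1.19 (0.721 to 1.99) was not called. The mean CPM of single barcodes gave a log2 ratio of 0.64, against 1.31 for the summed counts. That value passed 1.5-fold but has no counting interval, so the full rule for a call was not applied to it. Macrophages held 2.07 CPM in the Fbn1 C1039G/+ library and 8.87 CPM in the WT library, under the level for measured genes.

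Bmp4 (ENSMUSG00000021835, chromosome 14, 46383520 to 46390669, minus strand) encodes a close relative of the Bmp2 product. It stood at 73.9 CPM (72.1 to 75.8) in Fbn1 C1039G/+ and 76.1 CPM (74.2 to 78.0) in WT interstitial barcodes, a ratio of 0.971 (0.938 to 1.01). In endothelial barcodes it stood at 234 CPM (220 to 248) in the Fbn1 C1039G/+ library and 127 CPM (116 to 139) in the WT library, a ratio of 1.84 (1.65 to 2.05). The endothelial signal was widely spread, with a UMI in 58.5% of Fbn1 C1039G/+ and 51.2% of WT barcodes and 12.7% and 18.3% of its UMIs in the top 5. Thinned to 3000 UMIs, the endothelial Bmp4 level was 275 CPM in the Fbn1 C1039G/+ library and 183 CPM in the WT library, a ratio of 1.505 (1.22 to 1.87) just past the 1.5-fold bound. Macrophages held 2.07 and 4.31 CPM.

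Bmp6 (ENSMUSG00000039004, chromosome 13, 38345107 to 38500302, plus strand) is known in mouse liver as an endothelial ligand of the iron-sensing pathway. In the valve its level per UMI was highest in endothelial barcodes, at 75.7 CPM (68.2 to 83.9) in the Fbn1 C1039G/+ library and 35.7 CPM (29.9 to 42.2) in the WT library, a ratio of 2.12 (1.74 to 2.61). Interstitial barcodes held 6.60 and 6.92 CPM, although as the larger class they held more Bmp6 UMIs (571 and 573) than endothelial barcodes (369 and 135), and macrophages 0.551 and 0.127 CPM. A Bmp6 UMI was present in 42.1% (36.6 to 47.8) of Fbn1 C1039G/+ and 23.2% (18.1 to 28.9) of WT endothelial barcodes, at median depths of 10918.5 and 10882.5 UMIs, and in 0.455% and 0.125% of macrophages. Thinned to 3000 UMIs, with 8 Fbn1 C1039G/+ and 4 WT barcodes too shallow to enter, the shares were 19.7% and 10.2%, and the ratio of levels was 2.03 (1.35 to 3.11). Of the 3 ligand genes, Bmp6 had the endothelial ratio that changed least on thinning, although the thinned intervals of the 3 overlapped.

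Single endothelial barcodes could hold several ligand transcripts. All 3 genes had a UMI in 30 of 318 Fbn1 C1039G/+ endothelial barcodes (9.43%) and 10 of 250 WT barcodes (4.0%), 2 of the 3 in 33.3% and 23.2%, and 0 in 27.4% and 38.8%. Prox1, a transcription factor gene of lymphatic and valve endothelium, had a UMI in 62.6% (57.0 to 67.9) of Fbn1 C1039G/+ and 50.4% (44.0 to 56.8) of WT endothelial barcodes. The ligand genes stood higher in the Fbn1 C1039G/+ library on both sides of that division. With a Prox1 UMI, Bmp2 stood at 85.7 and 39.4 CPM, Bmp4 at 206 and 92.2 CPM, and Bmp6 at 74.9 and 39.0 CPM. Without one, Bmp2 stood at 44.6 and 13.8 CPM, Bmp4 at 312 and 183 CPM, and Bmp6 at 78.2 and 30.3 CPM. In both libraries Bmp2 was higher with a Prox1 UMI and Bmp4 higher without one, with intervals apart, while the Bmp6 intervals overlapped. These intervals cover counting error and not the spread between barcodes. The 5 barcodes richest in Bmp2 held 43.3% and 50.9% of its endothelial UMIs, and WT Bmp2 without a Prox1 UMI rests on 20 UMIs. Finding a Prox1 UMI depends on depth as well as on the cell.

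Female and male barcodes were told apart by Xist and by 4 Y-linked genes. Since the 3 mice of the Fbn1 C1039G/+ pool held both sexes, 1 of the sexes there is a single mouse, and a value by sex cannot be told apart from that mouse. Female endothelial barcodes held Bmp2 at 58.3 CPM in the Fbn1 C1039G/+ library and 13.6 CPM in the WT library, Bmp4 at 209.9 and 147 CPM, and Bmp6 at 77.2 and 46.2 CPM. Male endothelial barcodes held Bmp2 at 87.4 and 49.1 CPM, Bmp4 at 296 and 110.3 CPM, and Bmp6 at 81.2 and 26.9 CPM. All 6 ratios were above 1. In female barcodes 2 of the 3 ligand genes were called higher, Bmp4 at 1.43 (1.24 to 1.65) being the exception, where 3.93% of all measured genes were called higher, and in male barcodes 3 of 3 were, where 6.06% were.

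Transcripts of other cell types also differed between the endothelial classes of the 2 libraries. The interstitial rule genes summed to 3569 CPM in Fbn1 C1039G/+ and 2897 CPM in WT endothelial barcodes, with 3 of 4 called higher, 6 further interstitial markers summed to 2871 and 1936 CPM with 1 of 6 called higher, and 2 hemoglobin genes summed to 602 and 28.0 CPM with both called higher. The 3 lymphatic markers found (Mmrn1, Reln, Lyve1) summed to 3.28 and 129.7 CPM, with 1 of them at 0 in the Fbn1 C1039G/+ library and all 3 called lower, and 4 melanocyte markers to 39.6 and 149.8 CPM with 2 called lower. Chrdl1, which only interstitial barcodes held at a measured level, stood at 0.821 and 0.793 CPM in endothelial barcodes. Without the 0 Fbn1 C1039G/+ and 5 WT barcodes of at least 3 Mmrn1 and Reln UMIs, the endothelial ratios were 2.42 for Bmp2, 1.76 for Bmp4 and 2.04 for Bmp6. The part of interstitial, hemoglobin and melanocyte transcripts in the ligand difference was not tested.

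**Figure D3:**
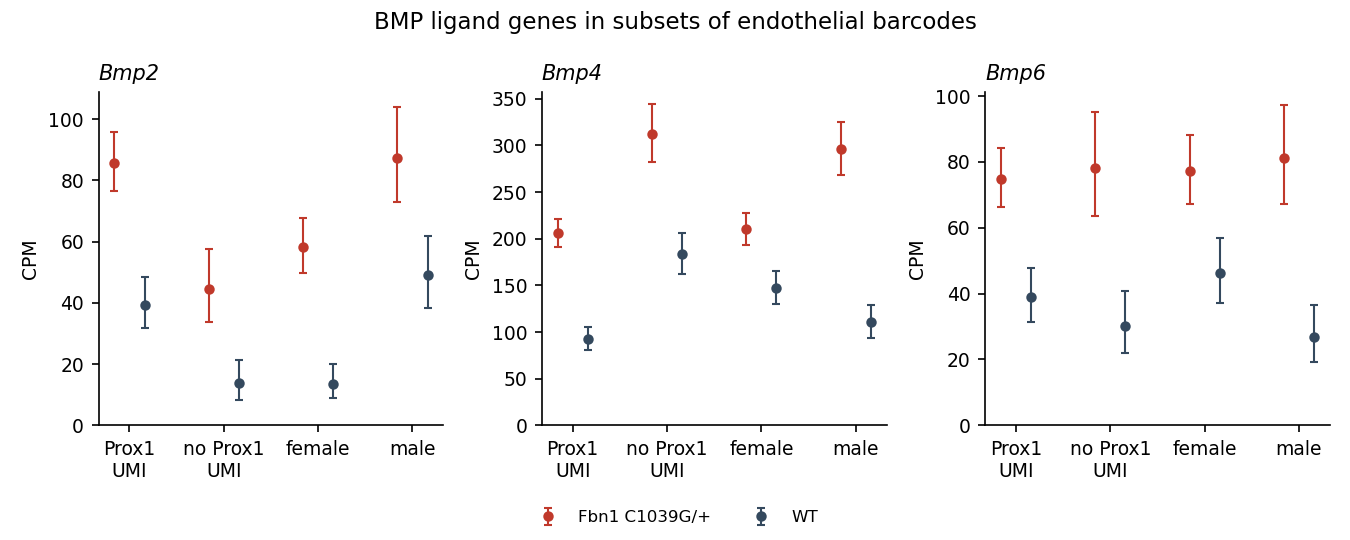
Bmp2, Bmp4 and Bmp6 in CPM (axes from 0) in endothelial barcodes with and without a Prox1 UMI and in female and male endothelial barcodes, for the Fbn1 C1039G/+ library (red, left) and the WT library (blue, right); bars are 95% Poisson intervals. The red point lies above the blue one in all 12 pairs, with Bmp4 nearest in female barcodes at 209.9 and 147 CPM.

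Chrdl1 (ENSMUSG00000031283, chromosome X, 143285674 to 143394262, minus strand) encodes chordin-like 1, a secreted protein that binds BMP4 and keeps it from its receptors. Its transcript belonged to interstitial barcodes, with 89.6 CPM (87.6 to 91.6) in the Fbn1 C1039G/+ library and 93.1 CPM (91.0 to 95.2) in the WT library, a ratio of 0.962 (0.933 to 0.993). A UMI was present in 25.2% of Fbn1 C1039G/+ and 24.8% of WT interstitial barcodes, against 1.26% and 0.8% of endothelial barcodes and 1.59% and 1.62% of macrophages. The endothelial shares rest on 4 and 3 UMIs. Macrophages held Chrdl1 at 2.15% and 2.31% of its interstitial CPM and Dcn at 1.49% and 2.92%, so Chrdl1 there was not separable from the background of interstitial transcripts.

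Interstitial barcodes differed widely in Chrdl1. Interstitial barcodes were ranked by the share of UMIs from marker genes of 10 interstitial states, and the top 10% of both libraries together was taken for each, so that a barcode can be in several sets. Fewer than 10% held a UMI of Notch3 (563 Fbn1 C1039G/+ and 682 WT barcodes) or of Top2a or Mki67 (259 and 180), so those 2 sets are the barcodes with any such UMI. In the set ranked by the cartilage-type matrix genes Chad, Cilp2, Thbs4 and Comp, Chrdl1 stood at 464 CPM in the Fbn1 C1039G/+ library and 477 CPM in the WT library, and in the Pappa2 set at 277 and 229 CPM. In the Prss35 and Vcan set it stood at 6.72 and 4.48 CPM, so its highest set exceeded its lowest 69.0-fold in the Fbn1 C1039G/+ library and 106-fold in the WT library. Between genotypes Chrdl1 passed 1.5-fold only in the Bglap2 and Nrgn set, at 63.6 and 36.7 CPM, a ratio of 1.73. The share of all measured genes called was not computed within these sets, so a gene past 1.5-fold in a set has no background beside it.

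The genes nearest to Chrdl1 across interstitial barcodes were Cilp2, Fmod, Comp, Abi3bp and Fibin, most of them genes of cartilage or tendon matrix. Pearson r of log-scaled UMIs with Chrdl1 was 0.655 in the Fbn1 C1039G/+ library and 0.665 in the WT library for Cilp2, 0.543 and 0.587 for Fmod, and 0.527 and 0.554 for Comp, over 7768 and 7557 barcodes that share a library and differ in depth. Bmp4, whose product Chrdl1 protein can bind, had a weak r with Chrdl1 of 0.165 and 0.177. In barcodes thinned to 3000 UMIs, those with a Chrdl1 UMI held Bmp4 at 107 and 111 CPM and those without held it at 68.6 and 69.4 CPM. Bmp2 was at 34.3 and 28.7 CPM with a Chrdl1 UMI and 55.0 and 49.9 CPM without.

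The same sets separated the ligand genes. Bmp4 was highest in the Chad, Cilp2, Thbs4 and Comp set, at 113 CPM in the Fbn1 C1039G/+ library and 114 CPM in the WT library, and lowest in the Rspo3 and Angpt1 set, at 33.7 and 38.5 CPM. Bmp2 was highest in the Cspg4 and Tesc set, at 109.6 and 84.4 CPM, and stood at 18.0 and 27.6 CPM in the Chad, Cilp2, Thbs4 and Comp set, a ratio there of 0.651 (0.530 to 0.798). The ratio of Bmp2 was 1.92 (1.49 to 2.49) in the set ranked by the cell cycle genes Top2a and Mki67, at 48.2 and 25.1 CPM in 259 and 180 barcodes. The genes nearest to Bmp4 were Fibin (r of 0.261 and 0.336), Thbs1, Kcnj15, Pamr1 and Fmod (0.215 and 0.286), and no gene reached an r of 0.2 in both libraries with Bmp2, Bmp6, Bmpr1a or Bmpr2.

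**Figure D4:**
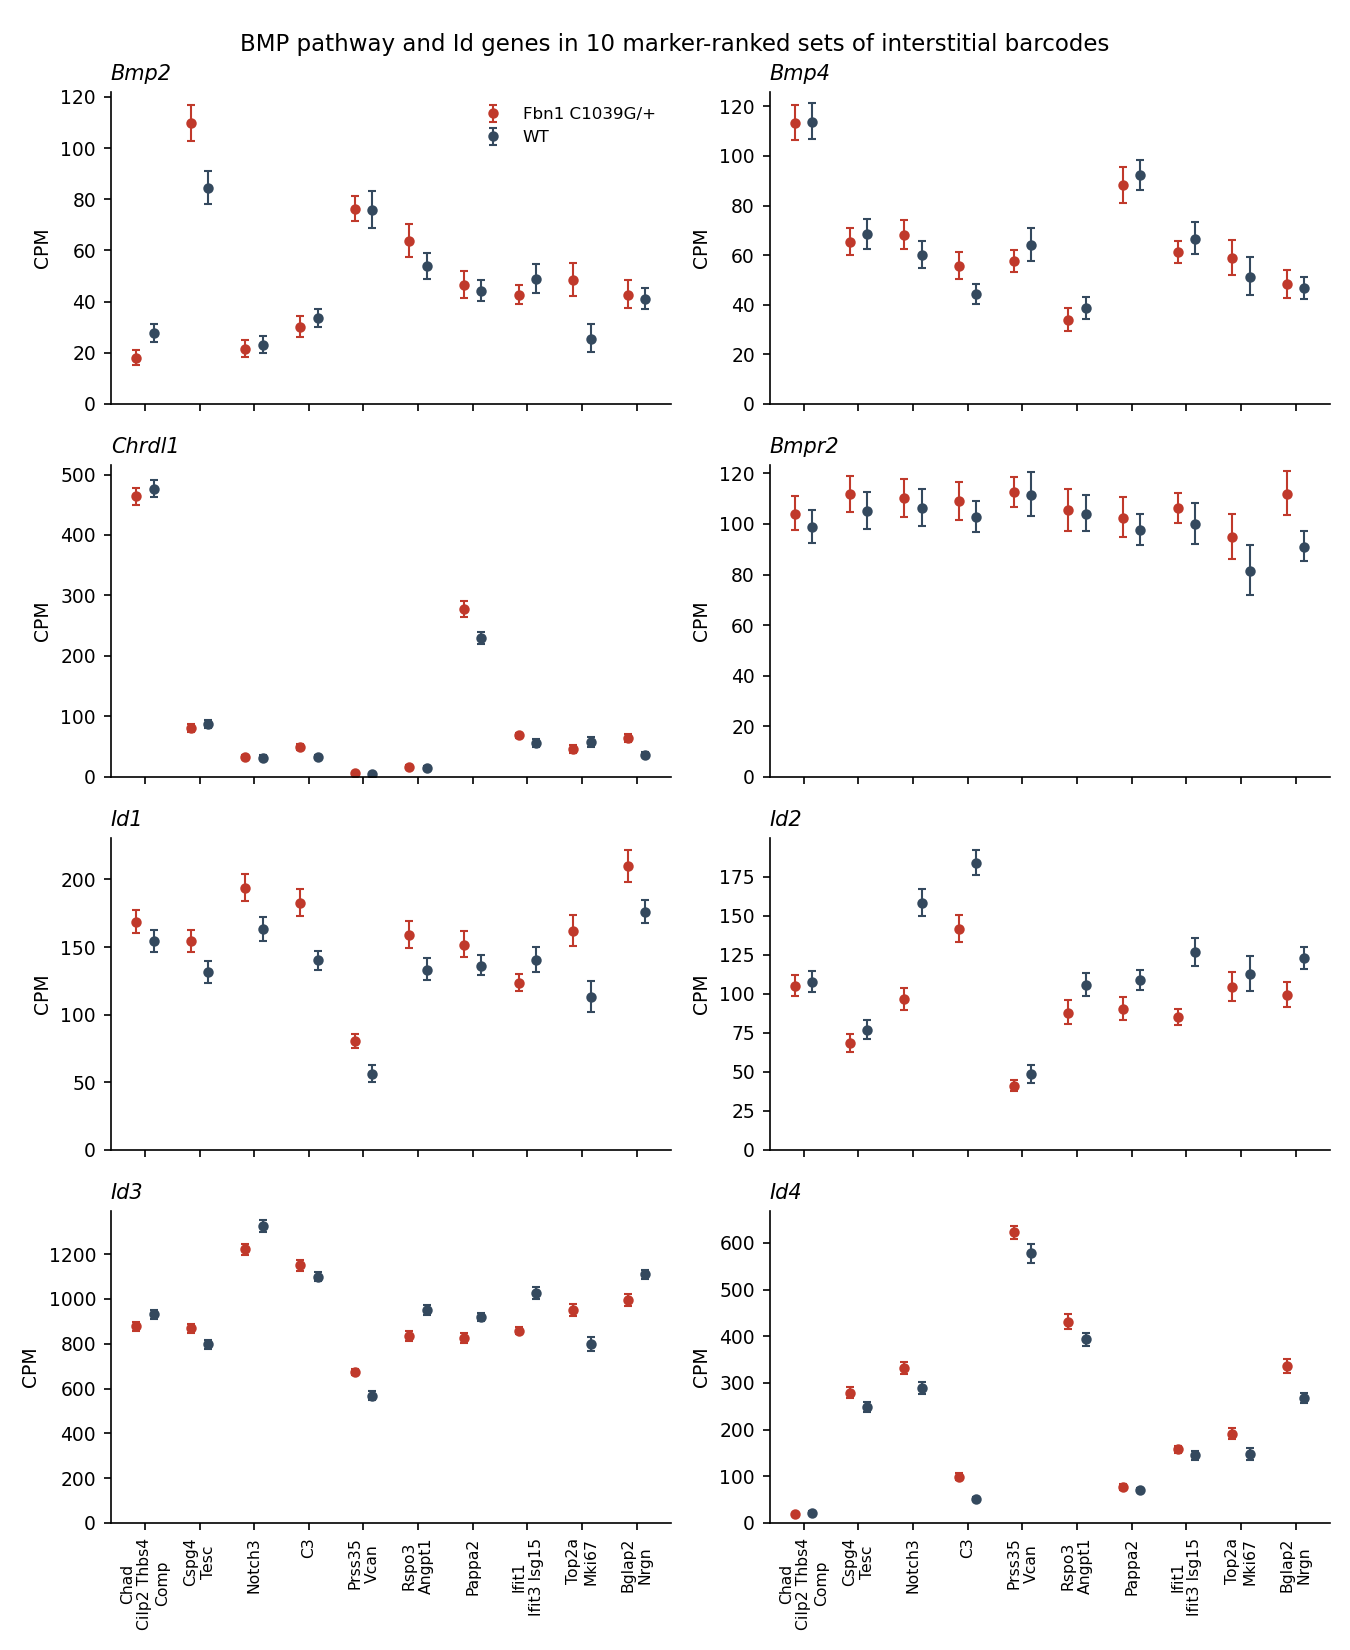
Level in CPM (axes from 0) of 8 of the genes in 10 overlapping sets of interstitial barcodes, each the top 10% by the share of UMIs from the marker genes named on the horizontal axis or, for Notch3 and for Top2a and Mki67, all barcodes with such a UMI, in the Fbn1 C1039G/+ library (red, left) and the WT library (blue, right) with 95% Poisson intervals. Chrdl1 peaks at 464 and 477 CPM in the Chad set, where Id4 is lowest at 19.1 and 21.9 CPM, Id4 peaks at 623 and 577 CPM in the Prss35 set, and Bmpr2 is nearly level across sets.

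The receptor genes varied little within the interstitial class. Bmpr1a (ENSMUSG00000021796, chromosome 14, 34410734 to 34503341, minus strand) encodes a type I receptor of BMP ligands. It stood at 109 CPM (107 to 112) in the Fbn1 C1039G/+ library and 115 CPM (112 to 117) in the WT library in interstitial barcodes, at 96.1 and 89.6 CPM in endothelial barcodes, and at 8.68 and 14.2 CPM in macrophages. Bmpr2 (ENSMUSG00000067336, chromosome 1, 59763400 to 59879014, plus strand), the type II receptor gene that is mutated in familial pulmonary arterial hypertension, stood at 109.7 CPM (107 to 112) and 105 CPM (103 to 107) in interstitial barcodes, a ratio of 1.04 (1.01 to 1.07). In endothelial barcodes Bmpr2 had 233 and 228 CPM, a ratio of 1.02 (0.934 to 1.12), and in macrophages at 47.0 and 42.0 CPM, a ratio of 1.12 (0.960 to 1.31). The endothelial Bmpr2 level exceeded the interstitial level 2.12-fold and 2.17-fold, while Bmpr1a was slightly higher in interstitial barcodes. Across the 10 interstitial sets the highest level exceeded the lowest 1.49-fold and 1.35-fold for Bmpr1a and 1.19-fold and 1.37-fold for Bmpr2, the 2 smallest spans among the 10 genes.

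Id1 (ENSMUSG00000042745, chromosome 2, 152736251 to 152737410, plus strand) is a target gene that BMP signals switch on directly. It stood at 714 CPM (690.1 to 738) in Fbn1 C1039G/+ and 607 CPM (583 to 633) in WT endothelial barcodes, a ratio of 1.18 (1.11 to 1.24). Interstitial barcodes held 153 CPM (150.1 to 155) and 142 CPM (139.8 to 145), a ratio of 1.07 (1.05 to 1.10), and macrophages 15.6 and 20.3 CPM, a ratio of 0.767 (0.598 to 0.983). No class passed 1.5-fold, and the endothelial level exceeded the interstitial level 4.67-fold in the Fbn1 C1039G/+ library and 4.26-fold in the WT library.

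Id3 (ENSMUSG00000007872, chromosome 4, 136143497 to 136145755, plus strand) is the other Id gene most often read as a BMP target. Its endothelial level was 1828 CPM (1790.2 to 1866) in the Fbn1 C1039G/+ library and 1752 CPM (1711 to 1795) in the WT library, with a UMI in 99.1% and 99.2% of barcodes. The interstitial level was 924 CPM (918 to 931) and 978 CPM (971 to 985), a ratio of 0.945 (0.936 to 0.954). The ligand difference of the endothelial class thus stood beside Id1 and Id3 ratios there of 1.18 and 1.04.

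In macrophages Id3 was the 1 gene called, at 78.9 CPM (72.6 to 85.7) in the Fbn1 C1039G/+ library and 140.1 CPM (132 to 149) in the WT library, a ratio of 0.564 (0.509 to 0.624). A UMI was present in 20.5% of Fbn1 C1039G/+ and 28.9% of WT macrophages, or 12.3% and 16.5% at 3000 UMIs per barcode, and the top 5 barcodes held 25.7% and 12.0% of the UMIs. Id3 was lower in both sexes, at 77.0 and 116 CPM in female and 43.7 and 148 CPM in male macrophages, and both above the median of MHC class II transcripts, at 87.7 and 161 CPM, and at or under it, at 73.1 and 117 CPM. Interstitial transcripts were lower in the same barcodes, with the 4 interstitial rule genes at 563 and 1028 CPM and all 4 called lower. In macrophages under 0.25% of such UMIs, a subset chosen after the data were seen, Dcn stood at 140.2 and 122 CPM and Id3 at 54.9 and 96.8 CPM, a ratio of 0.567 (0.499 to 0.644). The 15 immediate early genes, which respond within minutes to stimuli such as digestion, summed to 5822 CPM in Fbn1 C1039G/+ and 15082 CPM in WT macrophages, with 15 of 15 called lower. The part of interstitial transcripts and of immediate early genes in the Id3 difference was not tested.

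Id2 (ENSMUSG00000020644, chromosome 12, 25093799 to 25097140, minus strand) is known in mouse for its need in innate lymphoid and natural killer cells. It was lower in the Fbn1 C1039G/+ library in interstitial barcodes, at 89.5 CPM (87.5 to 91.5) against 117 CPM (114 to 119) in the WT library, a ratio of 0.767 (0.744 to 0.790), and in macrophages, at 80.7 and 104 CPM, a ratio of 0.776 (0.696 to 0.863). The macrophage difference lay in male barcodes, at 62.3 and 119 CPM, a ratio of 0.523 (0.426 to 0.637), while female macrophages held 84.1 and 80.9 CPM, a ratio of 1.04 (0.877 to 1.23). Endothelial barcodes held 161 and 174 CPM, with an interval of the ratio from 0.832 to 1.03. That value joins opposite ratios, 0.765 (0.677 to 0.864) with a Prox1 UMI, at 160.3 and 209.7 CPM, and 1.39 (1.13 to 1.71) without one, at 163 and 118 CPM. None of these passed 1.5-fold in the whole class. Among the interstitial sets, the Id2 ratio lay between 0.610 and 0.976, its interval was under 1 in 8 of 10, and in the Notch3 set it passed 1.5-fold at 96.7 and 159 CPM. Barcodes of no class held the highest Id2 level of all, at 408 and 397 CPM.

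Id4 (ENSMUSG00000021379, chromosome 13, 48261228 to 48266026, plus strand) is the Id gene with the best known roles in neural precursors and male germline stem cells of the mouse. It stood at 218 CPM (215 to 221) in Fbn1 C1039G/+ and 170.1 CPM (167 to 173) in WT interstitial barcodes, a ratio of 1.28 (1.26 to 1.31), at 14.8 and 7.13 CPM in endothelial barcodes and at 8.13 and 15.2 CPM in macrophages. In the Prss35 and Vcan set it stood at 623 and 577 CPM and in the Chad, Cilp2, Thbs4 and Comp set at 19.1 and 21.9 CPM, the reverse of Chrdl1. The Prss35 and Vcan set took 13.3% of Fbn1 C1039G/+ and 6.60% of WT interstitial barcodes, and the Id4 ratio within it was 1.08 (1.03 to 1.12). In 8 of 10 sets the interval of the Id4 ratio was above 1, and in the C3 set, at 98.7 and 51.3 CPM, it passed 1.5-fold with a ratio of 1.92 (1.72 to 2.15). How many of all measured genes were called in that set was not computed.

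Id1, Id2 and Id3 varied together across interstitial barcodes. Pearson r was 0.433 in the Fbn1 C1039G/+ library and 0.394 in the WT library for Id1 with Id3, 0.299 and 0.318 for Id2 with Id3, and 0.280 and 0.288 for Id1 with Id2. Of all genes compared, Id3 was the nearest to Id1 and to Id2 in both libraries. With Id4, r lay between −0.172 and −0.133 for the other 3 in both libraries, weak values in sparse counts. The genes nearest to Id4 were Stxbp6, Vcan, Rgs5, Atp1b1 and Fkbp1a, at an r of 0.442 and 0.392 for Vcan and 0.407 and 0.377 for Rgs5. The highest r of Id1 or Id3 with a ligand or receptor gene was 0.086, for Id3 with Bmp4 in the Fbn1 C1039G/+ library, where the WT library gave −0.021.

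Id1, Id2 and Id3 were lowest in the Prss35 and Vcan set, where Id1 stood at 80.4 CPM in the Fbn1 C1039G/+ library and 56.3 CPM in the WT library, Id2 at 41.3 and 48.6 CPM, and Id3 at 674 and 567 CPM. Their highest sets differed, with Id1 at 209.9 and 176 CPM in the Bglap2 and Nrgn set, Id2 at 142 and 184 CPM in the C3 set, and Id3 at 1221 and 1326 CPM in the Notch3 set. At 3000 UMIs per barcode, those with an Id4 UMI held Id2 at 56.0 and 86.0 CPM and those without held it at 102 and 131 CPM.

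The immediate early genes summed to 3225 CPM in Fbn1 C1039G/+ and 6197 CPM in WT interstitial barcodes, with 10 of 15 called lower, so the Id genes were compared within 3 equal ranks (tertiles) of that sum as a share of UMIs over both libraries. The lowest tertile held 3654 Fbn1 C1039G/+ and 1454 WT barcodes, the middle tertile 3089 and 2019, and the highest 1025 and 4084. Id4 stood at 192 and 133 CPM in the lowest tertile, 225 and 169.9 CPM in the middle and 278 and 182 CPM in the highest, with ratios of 1.44, 1.32 and 1.53. Id2 stood at 89.6 and 100.4 CPM, 87.8 and 108 CPM, and 94.5 and 126 CPM in the same order, with ratios of 0.893, 0.812 and 0.747. Bmp2 stood at 40.6 and 32.6 CPM, 51.2 and 46.3 CPM, and 79.0 and 51.6 CPM, higher in each next tertile of both libraries, and passed 1.5-fold in the highest. The share of all measured genes called was not computed within the tertiles. Id3 ratios lay between 0.977 and 1.02. Chrdl1 stood at 103 and 142 CPM, 85.1 and 113 CPM, and 62.9 and 67.2 CPM in the same order. Its ratios were 0.725 (0.687 to 0.766), 0.753 (0.715 to 0.794) and 0.936 (0.864 to 1.01), against 0.962 in all interstitial barcodes.

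By sex, interstitial Id4 stood at 218 CPM in Fbn1 C1039G/+ and 196 CPM in WT female barcodes and at 224 and 147 CPM in male barcodes, where the ratio of 1.53 (1.47 to 1.58) passed the rule, as did 0.626% of all measured genes in that direction. Female barcodes held Id3 at 1076 and 1077 CPM and male barcodes at 757 and 895 CPM. Bmp2 stood at 61.0 and 46.7 CPM in female and 42.3 and 47.9 CPM in male barcodes, and Id1 at 182 and 157 CPM in female and 121 and 130.3 CPM in male barcodes, so both ratios lay on opposite sides of 1 in the 2 sexes. Male barcodes held less Id1 than female ones within each library.

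**Figure D5:**
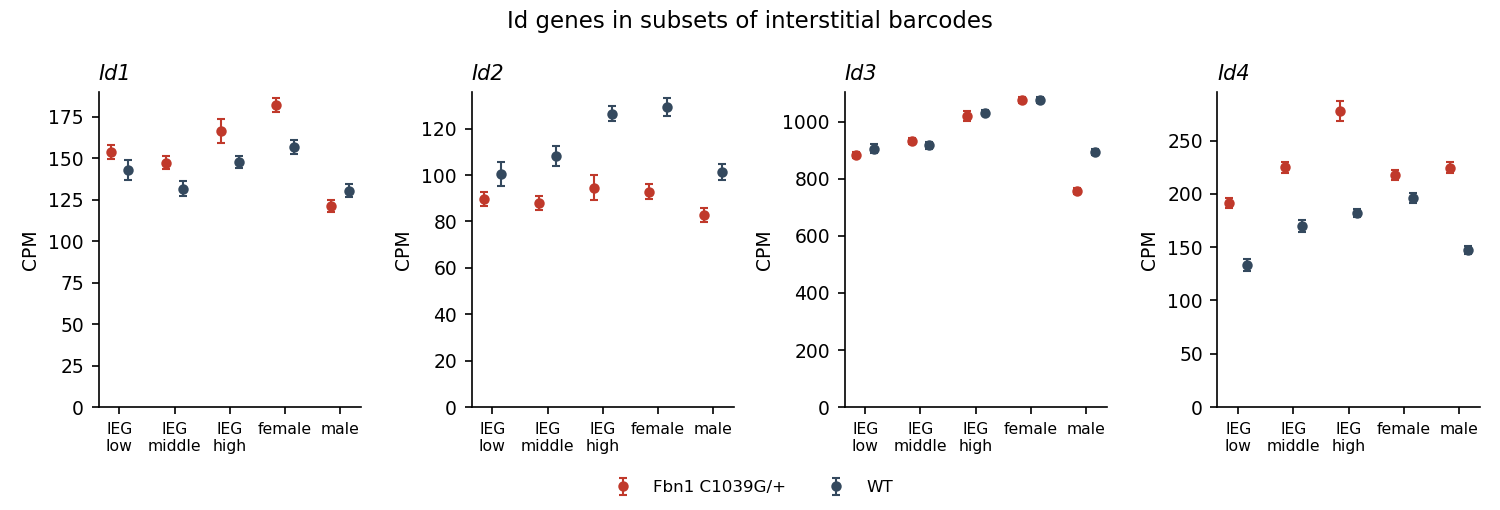
Id1, Id2, Id3 and Id4 in CPM (axes from 0) in interstitial barcodes of the lowest, middle and highest tertile of immediate early gene (IEG) UMIs and in female and male barcodes, for the Fbn1 C1039G/+ library (red, left) and the WT library (blue, right) with 95% Poisson intervals. Id4 is higher and Id2 lower in the Fbn1 C1039G/+ library in every subset drawn, while Id3 differs most in male barcodes, at 757 and 895 CPM.

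The wider pathway was followed in a list of 54 further genes by role. In interstitial barcodes 25 were measured, with 1 called higher and 1 lower, where 0.869% and 1.37% of all 6563 measured genes were. Their median log2 ratio was 0.03, the same as the 0.03 over all measured genes. In endothelial barcodes 22 were measured, with 2 called higher and 1 lower, where 3.07% of all 7240 measured genes were called in each direction. The median there was 0.08 against 0.02 over all measured genes. In macrophages 13 were measured, with 0 called higher and 2 lower, where 1.28% and 3.59% of all 6080 measured genes were. The median there was −0.10 against 0.02. Of the 10 other ligand genes 0 were measured in any of the 3 classes, the highest in interstitial barcodes being Bmp5 at 9.94 CPM in the Fbn1 C1039G/+ library and 16.3 CPM in the WT library, followed by Bmp3 at 1.42 and 1.84 CPM.

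The secreted modulators held the largest differences of that list. Fst, whose product follistatin binds activins and some BMPs, stood at 431 CPM in Fbn1 C1039G/+ and 134 CPM in WT endothelial barcodes, a ratio of 3.21 (2.92 to 3.55), and at 50.9 and 15.9 CPM in interstitial barcodes, a ratio of 3.21 (3.01 to 3.41). Fstl1, a follistatin-related secreted protein gene, stood at 646 and 406 CPM in endothelial barcodes, a ratio of 1.59 (1.497 to 1.69), at 1326 and 1158 CPM in interstitial barcodes, and at 39.1 and 75.0 CPM in macrophages, where it was called lower. Nbl1, which encodes the BMP antagonist DAN, was called lower in endothelial barcodes at 113 and 207 CPM and stood at 47.2 and 37.6 CPM in interstitial barcodes. Twsg1, a modulator of chordin, stood at 198 and 219 CPM in interstitial barcodes. Of the 4 modulators measured in endothelial barcodes, 2 were called higher and 1 lower, where 3.07% of all measured genes were called in either direction.

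Receptors, transducers and E proteins showed smaller differences, and 0 of them were called in the 3 classes. The co-receptor gene Eng stood at 1358 CPM in Fbn1 C1039G/+ and 1314 CPM in WT endothelial barcodes and at 215 and 174 CPM in interstitial barcodes, and the type I receptor gene Acvr1 at 76.1 and 70.2 CPM in interstitial barcodes. Bambi, which encodes a receptor-like inhibitor without a kinase, stood at 186 and 192 CPM there, and the inhibitory SMAD gene Smad7 at 146 and 157 CPM. The E protein genes Tcf4 and Tcf12, whose products Id proteins bind, stood at 484 and 551 CPM and at 223 and 259 CPM. Among the other targets in interstitial barcodes, the cardiac transcription factor gene Tbx20 stood at 1009 and 850.5 CPM. The transcription factor gene Sox9 stood at 373 and 319 CPM there. Hes1, better known as a Notch target, was called lower in interstitial barcodes, at 133 and 222 CPM, and in macrophages, at 30.7 and 47.5 CPM, the 2 classes whose immediate early genes were also lower, and the part of those genes in the Hes1 level was not tested.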

How the data were processed

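The deposited counts are raw UMIs of each gene in each barcode. The authors made them with Cell Ranger on mm10 and did not normalise them, per the file headers and the submitters' processing notes, of which the notes name version 3.1.0 and the headers 5.0.1. Droplets without a cell were not used here, and free RNA was not subtracted. Counts were summed by class and library with scipy 1.17.1 in Python 3.11.15 and scaled to CPM, with exact 95% intervals (Poisson for levels, conditional binomial for ratios, Clopper-Pearson for shares), and the code was tested on simulated counts. Doublets stay in the main values. Scrublet in scanpy 1.11.5 called 0 barcodes at its automatic threshold, so an alternative left out the highest scores at 0.8% per 1000 barcodes. The 1% bound of the interstitial class had 1289 Fbn1 C1039G/+ and 1718 WT interstitial barcodes between it and 2%.

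The 10 genes, lists, sets and class rules were chosen with earlier results of these data known. All 10 are reported. Of 54 further pathway genes the text names those called in a class and the 2 of each role with the highest interstitial CPM. Smad6, an inhibitory SMAD gene not called in any class, is added here because its Fbn1 C1039G/+ over WT ratios were above 1. They were 1.35 (1.21 to 1.49) for endothelial and 1.33 (1.26 to 1.40) for interstitial barcodes. Of nearest genes the text names at most 5 with r of at least 0.2 in both libraries. Smaller endothelial and macrophage subsets (fewer lymphatic-type or ligand-rich barcodes, under 0.25% interstitial UMIs) were added after seeing the data.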

Additional observations from a re-analysis of the deposited data

Results flagged for a closer look

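Sexes of a class, classes, and complementary subsets (Prox1 in endothelial barcodes, MHC class II in macrophages, immediate early gene tertiles in interstitial barcodes) were set against each other, and the overlapping interstitial sets were not. Only pairs with the gene measured on both sides were counted. In 8 of these the ratio of Fbn1 C1039G/+ over WT lay on opposite sides of 1, with both counting intervals excluding 1. Pairs with an unmeasured side, such as Bmp2 in interstitial barcodes and macrophages (1.08 and 0.233), are left out of that count. None of these differences was tested, since each genotype had 1 library. By sex, the female ratio exceeded the male ratio 1.48-fold for Bmp2 in interstitial barcodes (1.31 and 0.884), 1.25-fold for Id1 in interstitial barcodes (1.16 and 0.929) and 1.33-fold for Id1 in endothelial barcodes (1.15 and 0.861). Because 1 sex of the Fbn1 C1039G/+ pool came from a single mouse, sex and mouse cannot be told apart there. The Id2 ratio of endothelial barcodes with a Prox1 UMI was 0.551 times that of those without one (0.765 and 1.39). By class, the Id1 ratio of interstitial barcodes was 1.40 times that of macrophages (1.07 and 0.767), and that of endothelial barcodes was 1.53 times that of macrophages (1.18 and 0.767). The Id3 ratio of interstitial barcodes was 0.906 times that of endothelial barcodes (0.945 and 1.04), and that of endothelial barcodes was 1.85 times that of macrophages (1.04 and 0.564).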

How the results depend on the processing

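Across 21 ratios of measured genes, 302 alternative values were computed, of which 287 had the sign of the main value, 246 lay within its counting interval, 56 moved beyond it and 0 were both called and of the other sign. Some of these values could not differ from the main one. Dropping the level filter leaves every ratio as it was. A 2% interstitial bound leaves the endothelial and macrophage classes unchanged, and a 0.5% bound on the other classes leaves the interstitial class unchanged. The 3 endothelial ligand genes and macrophage Id3 had the sign of the main value in every alternative. Endothelial Bmp2 was not called with barcodes thinned to 3000 UMIs (log2 ratio of 0.25, against 1.31), and endothelial Bmp4 was not called in female barcodes alone (0.51, against 0.87). Of 6 counts of called genes 4 were within 1.5 times in every alternative. For the mean CPM of single barcodes, which has no interval, a call there rests on 1.5-fold alone. The count higher in interstitial barcodes was 1 in male barcodes (Id4, where 0.626% of genes were called). The count lower in macrophages was 2 when thinned (Id2 and Id3, where 3.73% of genes were called lower), 3 in male barcodes (Id1, Id2 and Id3, where 5.7% were) and 5 with no filter on level (Bmp2, Bmp4, Bmpr1a, Id3 and Id4, where 4.72% were). Leaving out barcodes that reach a second class could be done for interstitial barcodes only, since the rules set those of the other classes aside. No paired analysis was possible because each genotype has 1 library, and for the same reason no replicate could be left out. Genes under 20 CPM, which include Chrdl1 outside interstitial barcodes, and the 318 and 250 endothelial barcodes set the limit of depth.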
